A study of Mus musculus with 9 samples.

Results

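Red cell and liver miRNAs were followed through small RNA libraries of RAW264.7, a macrophage-like cell line from mouse. They were found by name: species prefix, arm and variant suffix were removed, and rows named miR-451, miR-451a, miR-144, miR-486, miR-486a, miR-486b or miR-122 were kept. Of these 7 names, 4 were present, each with 1 sequence, which gave 4 of the 1571 sequences in the table: miR-451a, miR-144-3p, miR-486-5p and miR-122-5p. The table lists all 4 under human names. They were chosen because earlier results of these data showed them higher at both doses than in control, so their levels and differences are a description and carry no test.

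There were 9 libraries of wild-type cells, 3 each of control, ginsenoside Rd (GRd) at 1 µM and GRd at 10 µM. Per the labels, the GRd groups were given LPS (lipopolysaccharide of bacterial cell walls, an activator of macrophages) for 6 h, followed by GRd, a saponin of ginseng, for 24 h. The control label states neither LPS nor GRd, whereas the sample description and treatment protocol place these cells at 0 µM GRd after LPS. A comparison with control therefore covers GRd alone or LPS with GRd, and these cannot be told apart. All cells were grown in medium with fetal bovine serum. Library 3 of the 10 µM group carries the cell line label RAW264.8, and the other 8 carry RAW264.7. Nothing in the labels says that replicates came from separate cultures.

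miR-451a and miR-144 are made from 1 primary transcript that erythroid cells switch on under GATA1, and they are among the most abundant miRNAs of red cells. miR-451a is unusual in that Argonaute2, not Dicer, cuts its short hairpin, so its mature form runs from the 5′ arm into the loop. miR-486 lies within the gene of the red cell membrane protein ankyrin-1 and is abundant in red cells and muscle, and miR-122 is the dominant miRNA of hepatocytes. None of the 4 is typical of macrophages, and all circulate in blood plasma or serum.

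The pair from the common transcript is shown as sequence because its 2 members share a locus but no seed (bases 2 to 8, which pair with targets). RefSeq sequences (GRCm38.p6) were available for 2 of the 4 hairpins. In the mature sequences the capitals mark the seed.
miR-451a: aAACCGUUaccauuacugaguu
miR-144-3p: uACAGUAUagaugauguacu
The deposited miR-451a sequence ended 1 base earlier, as its name in the table (hsa-miR-451a_R-1) records, and had 21 bases. The deposited miR-144-3p had the same 20 bases as in RefSeq. No other sequence among the 1571 shared a seed with any of the 4 miRNAs.

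The next lines show the 2 hairpins, on the plus strand, with the deposited mature sequence in capitals.
Mir144, chr11:78073005-78073070: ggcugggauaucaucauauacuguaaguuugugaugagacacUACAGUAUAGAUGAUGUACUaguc
Mir451a, chr11:78073170-78073241: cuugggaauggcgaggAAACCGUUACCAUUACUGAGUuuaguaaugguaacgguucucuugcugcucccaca
In Mir144 the sequenced RNA took bases 43 to 62 of 66, the 3′ arm. In Mir451a it took bases 17 to 37 of 72 and so began on the 5′ side. The hairpins lie 99 bases apart. GENCODE annotates no host gene there, and Mir451b lies on the opposite strand of Mir451a.

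Values are normalized counts, read counts per sequence that the authors scaled per library, and they summed to between 6235670 and 6815351 per library. Macrophage miRNAs were present in each library: the 8 matched macrophage and myeloid sequences of 11 names on the list, among them miR-155, miR-146a and miR-21, summed to between 1474409 and 1535385 in control, 1401236 and 1672666 at 1 µM, and 898635 and 1607221 at 10 µM. The lowest sum belonged to library 3 of the 10 µM group, which stood apart from the other 8: its median r with them was 0.927 across 414 abundant sequences, against 0.974 to 0.992 for the rest. Results that rest on it are given with and without it.

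The 4 miRNAs were a small part of these libraries. Their summed level was 89.7, 139 and 85.5 normalized counts in control, 142, 159 and 395 at 1 µM, and 138, 227 and 813 at 10 µM. The highest sums belonged to library 3 of the 10 µM group and library 3 of the 1 µM group, and library 1 of the 10 µM group (138.0) lay below control library 2 (139.4). In parts per 1000000 normalized counts of the library, the sum was 13.1 to 22.1 in control, 22.6 to 60.5 at 1 µM and 21.5 to 119 at 10 µM. miR-122-5p made up 40.3 to 61.1% of the sum in control libraries and 22.0% in library 3 of the 1 µM group, where miR-451a made up 56.4%. In bulk samples, fewer cells of a type and less RNA per cell cannot be told apart.

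Low values fell on evenly spaced steps, which allows an estimate of the reads behind them. The most frequent low value of each library was taken as 5 reads. One read was then worth 0.687 to 1.38 normalized counts, and the sums correspond to an estimated 4933685 to 9214213 reads per library. Between 85.8 and 90.4% of values under 50 reads lay within 0.01 of a whole read, and 98.4 to 99.4% within 0.01 of a multiple of 0.5 reads. Only 2.49 to 3.82% of the values above 0 corresponded to fewer than 5 reads, so a miRNA listed at 0 may have had a few reads that the table does not list.

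miR-451a, the red cell miRNA, was higher in each GRd library than in each control library. It stood at 13.8, 26.8 and 22.5 normalized counts in control, 31.6, 76.0 and 223 at 1 µM, and 36.2, 83.0 and 201 at 10 µM. Library 1 of each GRd group was its lowest and library 3 its highest, and the GRd groups overlapped each other almost entirely. In estimated reads these were 13, 39 and 17 in control, 32, 80 and 200 at 1 µM, and 52, 81 and 146 at 10 µM. By level miR-451a ranked between 267 and 589 among the 811 to 1049 sequences above 0 in a library.

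The spread of miR-451a within each GRd group was larger than counting error. Exact Poisson intervals of 95%, which cover counting error only, ran from 21.6 to 44.6, 60.3 to 94.6 and 193 to 256 normalized counts for the 3 libraries at 1 µM, without touching each other. At 10 µM they ran from 27.1 to 47.5, 65.9 to 103 and 169.8 to 236, also apart. In control they ran from 7.35 to 23.6, 19.0 to 36.6 and 13.1 to 36.1, and these overlapped. The highest library was 5.55 times the lowest at 10 µM and 7.05 times at 1 µM, against 1.94 times in control.

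Group means of miR-451a were 107 ± 85.0 normalized counts at 10 µM, against 21.0 ± 6.62 for control cells (SD, n = 3 each), and their ratio was 5.07. At 1 µM the mean was 110 ± 100.02, 5.23 times that of control. Without library 3 of the GRd group the ratio to control was 2.83 at 10 µM (mean 59.6) and 2.56 at 1 µM (mean 53.8). Between the doses the ratio of means, 10 over 1 µM, was 0.970, and the fitted log2 difference was 0.06 (SE 0.62).

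Libraries with the same number were close to each other at the 2 doses for this miRNA. The ratio of 10 to 1 µM was 1.15 between the libraries numbered 1, 1.09 between those numbered 2 and 0.903 between those numbered 3. The labels do not say that a number marks a shared culture or day, and over all sequences tested same-numbered libraries did not deviate together.

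**Figure D1:**
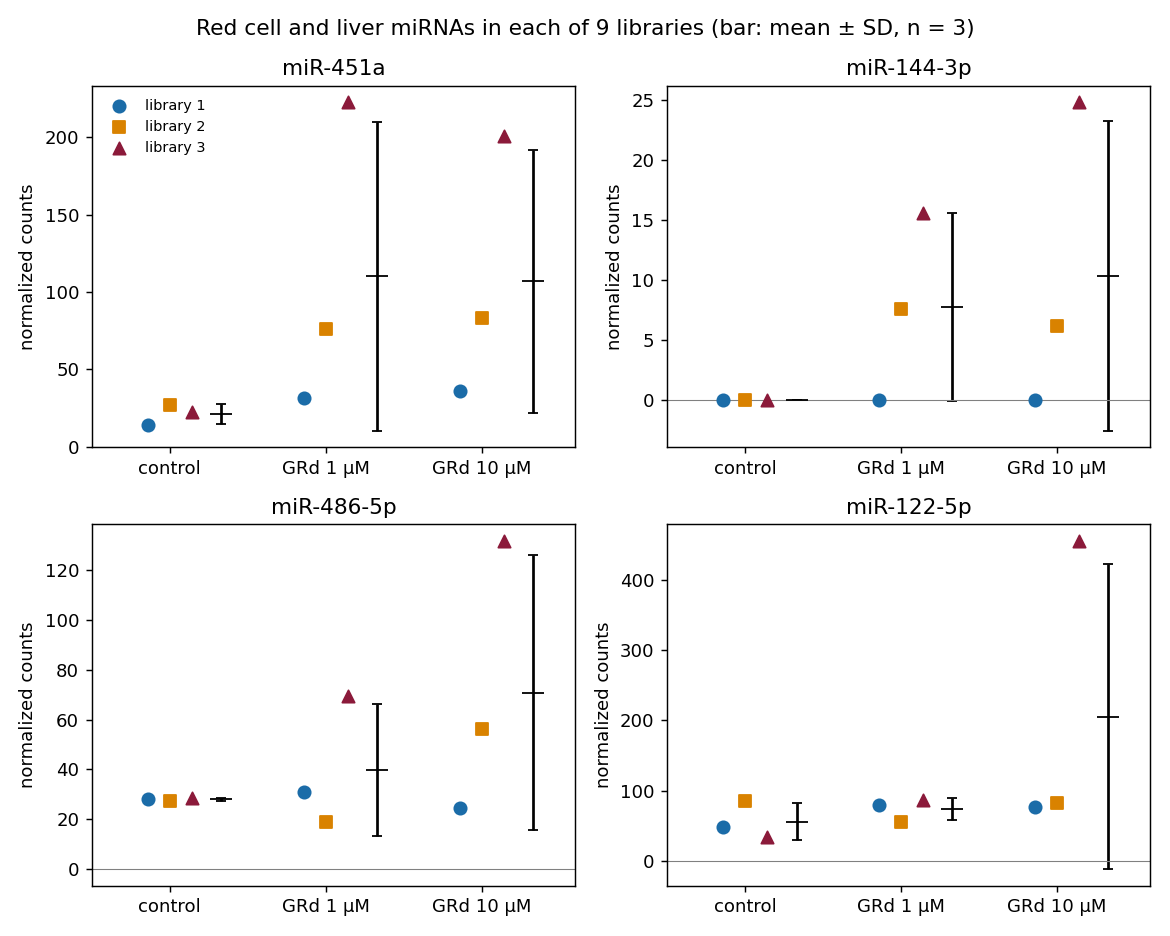
Normalized counts (vertical axes, linear) of the 4 miRNAs in control, GRd 1 µM and GRd 10 µM cells. Each point is 1 library, marked by its number, and the bar beside each group is the mean ± SD of 3 libraries. miR-451a lies above control in all 6 GRd libraries, from 31.6 to 223, whereas miR-122-5p stands apart in 1 library only, at 456.

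miR-144-3p, the partner of miR-451a on the common transcript, was listed at 0 in all 3 control libraries. It stood at 0, 7.60 and 15.6 normalized counts at 1 µM and at 0, 6.15 and 24.8 at 10 µM. Library 1 of each GRd group was at 0 like the controls, so the groups overlapped. These values correspond to 0, 8 and 14 reads at 1 µM and 0, 6 and 18 reads at 10 µM, few enough that the Poisson interval of the highest, 24.8, ran from 14.7 to 39.2. The group mean was 10.3 ± 12.9 at 10 µM and 7.73 ± 7.80 at 1 µM (SD, n = 3 each). Without library 3 of the group the means were 3.07 at 10 µM and 3.80 at 1 µM. The other arm, miR-144-5p, had no row.

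The 4 libraries with miR-144-3p were the 4 with the most miR-451a. There miR-144-3p had 7.41 and 12.3% of the reads of miR-451a at 10 µM (libraries 2 and 3), and 10.0 and 7.0% at 1 µM (libraries 2 and 3). Applied to the miR-451a reads of the 5 libraries listed at 0, the lowest and highest of these shares would give 3.64 to 6.41 reads of miR-144-3p in library 1 of the 10 µM group, 2.24 to 3.95 in library 1 of the 1 µM group, and 0.91 to 4.81 in the control libraries. In control and in library 1 of the 1 µM group this is below 5 reads, the level under which the table lists few values. At this depth a lower ratio of the pair in control was not detectable.

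**Figure D2:**
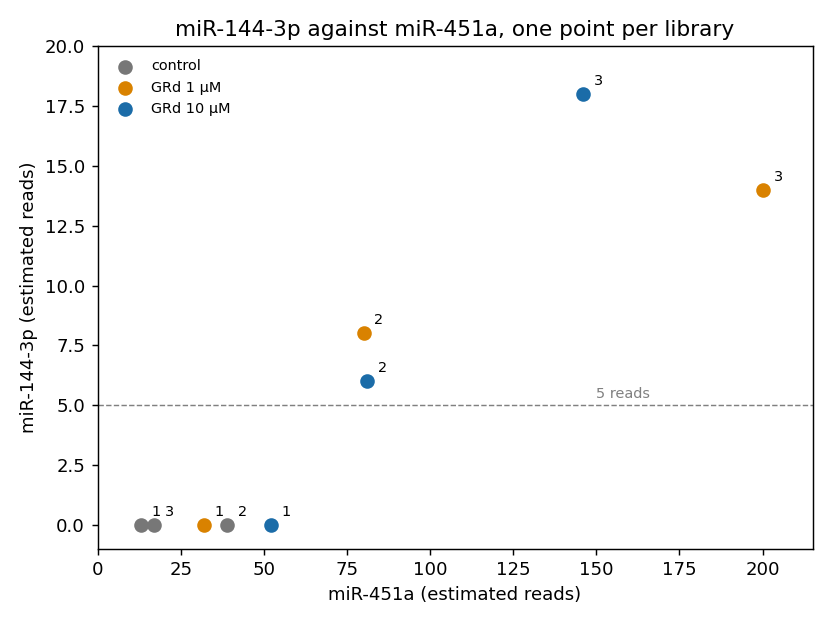
Estimated reads of miR-144-3p (vertical axis) against estimated reads of miR-451a (horizontal axis), 1 point per library, numbered by library and coloured by group. The dashed line marks 5 reads. The 4 libraries with 80 or more reads of miR-451a hold 6 to 18 reads of miR-144-3p, and the 5 with 52 or fewer hold 0.

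miR-486-5p, of red cells and muscle, was nearly equal in the 3 control libraries. Its hairpin Mir486 (chromosome 8, 23142555 to 23142682, GRCm38) lies in an intron of Ank1 and overlaps Mir3107 on the other strand. The deposited sequence is present whole in both hairpins, so its reads cannot be given to either. It stood at 28.1, 27.5 and 28.5 normalized counts in control, 31.1, 19.0 and 69.6 at 1 µM, and 24.4, 56.4 and 132 at 10 µM. Libraries 2 and 3 of the 10 µM group and libraries 1 and 3 of the 1 µM group lay above control, and the remaining library of each group lay below, so the groups overlapped at both doses. Some of its values fell between whole reads, such as 95.5 reads for library 3 at 10 µM and 26.5 for control library 1. Library 2 at 1 µM, the lowest for miR-486-5p, had the second highest miR-451a of its group.

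The mean of miR-486-5p was 70.8 ± 55.0 normalized counts at 10 µM, against 28.0 ± 0.530 for control cells (SD, n = 3 each), and their ratio was 2.52. At 1 µM it was 39.9 ± 26.4, with a ratio of 1.42 to control. Without library 3 of the GRd group the ratios were 1.44 at 10 µM (mean 40.4) and 0.893 at 1 µM (mean 25.1), so at 1 µM the direction rested on that library. The Poisson interval of control library 2, at 40 reads, ran from 19.6 to 37.4, wider than the range of all 3 controls.

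miR-122-5p, the liver miRNA, stood out in a single library. Its hairpin Mir122 (chromosome 18, 65248861 to 65248926, GRCm38) lies in an exon of the long noncoding RNA gene AC157910.3. It stood at 47.8, 85.1 and 34.5 normalized counts in control, 79.0, 56.1 and 86.9 at 1 µM, and 77.4, 82.0 and 456 at 10 µM. The last value, in library 3 of the 10 µM group, was 5.25 times the next highest of any library, and the other 8 libraries overlapped across all 3 groups. Its Poisson interval in library 3 of the 10 µM group (331 reads) ran from 408 to 508, against 70.8 to 102 for control library 2 (124 reads). In library 3 of the 1 µM group, the library with the most miR-451a, miR-122-5p was 86.9 (78 reads, interval 68.7 to 108), close to control library 2.

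The mean of miR-122-5p was 205 ± 217 normalized counts at 10 µM, against 55.8 ± 26.3 for control cells (SD, n = 3 each), and their ratio was 3.68. Without library 3 the 10 µM mean was 79.7 ± 3.25 (SD, n = 2), 1.43 times control. At 1 µM the mean was 74.0 ± 16.0, 1.33 times control. Between the doses the ratio of means, 10 over 1 µM, was 2.77, and it was 1.08 without library 3 of the 10 µM group.

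The 4 miRNAs were then read from a fit over all 1561 sequences with a group mean of at least 1, with limma on log2(normalized counts + 1). All 4 entered the fit, miR-144-3p only through its GRd groups. For 10 µM against control the fitted log2 differences were 2.01 (SE 0.62) for miR-451a, 2.51 (SE 1.32) for miR-144-3p, 0.99 (SE 0.56) for miR-486-5p and 1.44 (SE 0.53) for miR-122-5p. With library 3 of the 10 µM group left out these were 1.39, 1.42, 0.39 and 0.60, in the same order. The median of the 4 over all libraries was 1.72, beside a median of 0.14 over all sequences. The value of miR-144-3p depends on the added 1, since it was listed at 0 in control. With limma and Benjamini-Hochberg adjustment 0 of the 4 passed 0.05, beside 0% of all sequences in either direction. At an unadjusted p under 0.05 there were 2 of the 4, miR-451a and miR-122-5p, and 5.51% of all sequences (86). miR-451a was the 1 member whose libraries lay above all controls without overlap, beside 3.72% of all sequences.

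For 1 µM against control the fitted log2 differences were 1.95 (SE 0.62) for miR-451a, 2.39 (SE 1.32) for miR-144-3p, 0.30 (SE 0.56) for miR-486-5p and 0.48 (SE 0.53) for miR-122-5p. With library 3 of the 1 µM group left out they were 1.23, 1.55, -0.20 and 0.35, in the same order, so that of miR-486-5p turned. The median over all libraries was 1.21, beside 0.00 over all sequences. After adjustment limma passed 0 of the 4 and 0% of all sequences in either direction, and at an unadjusted p under 0.05 it gave 1 of the 4, miR-451a, beside 1.79% (28). Again miR-451a alone of the 4 lay above control without overlap, beside 5% of all sequences. Both comparisons use the same 3 control libraries, and members were chosen from both, so nothing is read from these counts.

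For 10 against 1 µM the fitted log2 differences were 0.12 (SE 1.32) for miR-144-3p, 0.70 (SE 0.56) for miR-486-5p and 0.96 (SE 0.53) for miR-122-5p, beside that of miR-451a given above. The median was 0.41, and 0.15 over all sequences. With limma 0 of the 4 passed after adjustment and 0 at an unadjusted p under 0.05, beside 0% and 4.8% (75) of all sequences. None of the 4 was higher at 10 µM without overlap, beside 3.59% of all sequences. Without library 3 of the 10 µM group the difference between doses was -0.56 for miR-451a and -0.97 for miR-144-3p, both below 0, and 0.10 for miR-486-5p and 0.13 for miR-122-5p.

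**Figure D3:**
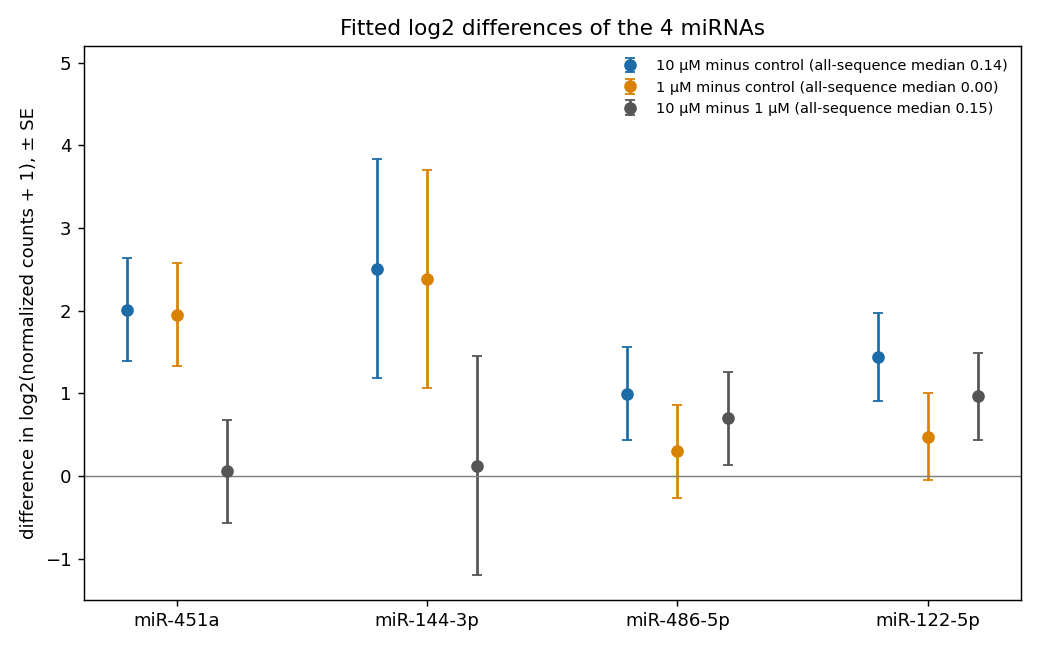
Fitted differences in log2(normalized counts + 1), with SE, for the 4 miRNAs in 3 comparisons of 3 against 3 libraries. Positive values are higher in the first-named group. miR-451a and miR-144-3p lie near 2 or above against control at both doses and near 0 between doses. The differences between doses of miR-486-5p and miR-122-5p (0.70 and 0.96) rest on library 3 of the 10 µM group and are 0.10 and 0.13 without it.

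Likeness among the 4 miRNAs across the 9 libraries was described by the Pearson r of log2(normalized counts + 1). All points of such an r share the libraries and their scaling. miR-451a and miR-144-3p had r = 0.949 (Spearman rho 0.876), and r = 0.880 without the 2 libraries farthest from the median of miR-451a, library 3 at 10 and at 1 µM. Of the libraries then left, only library 2 of each GRd group had miR-144-3p above 0, at 6 reads at 10 µM and 8 at 1 µM. The r of 0.880 rests on them. miR-122-5p and miR-486-5p had r = 0.807 (rho 0.617), and r = 0.304 without library 3 at 10 and at 1 µM, so that relation rested on these libraries. For miR-451a with miR-122-5p r was 0.663 (rho 0.733), and 0.421 without both libraries 3. miR-451a with miR-486-5p had r = 0.751 (rho 0.517) and 0.228 without them.

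Among 412 other sequences with a mean of at least 50, the 5 most like miR-451a over the 9 libraries were mmu-miR-3968_L-3_1ss14AT (r = 0.809), hsa-miR-145-5p (0.785), pal-miR-9993b-3p_1ss9GT (0.772), mmu-miR-3076-3p_R-1 (0.766) and hsa-miR-1260a (0.716). Without library 3 of the 10 µM group and library 3 of the 1 µM group their r with miR-451a was 0.870, 0.855, 0.774, 0.682 and 0.855, in the same order. The partner miR-144-3p had r = 0.949 over all 9 libraries and 0.880 without these 2, close to the highest of the 5. The 0.880 rests on library 2 of each GRd group, since miR-144-3p was listed at 0 in the others left. The 5 most like miR-122-5p were hsa-miR-145-5p (r = 0.932), hsa-miR-1260b_R-1 (0.928), bta-miR-1260b_1ss9AG (0.927), pal-miR-9993a-3p (0.926) and mmu-mir-3473f-p3_1ss3AG (0.925). Each of those 5 was highest in library 3 of the 10 µM group, and without that library and control library 3 their r with miR-122-5p was 0.170 to 0.558. hsa-miR-145-5p, in both sets of 5, reached a mean of 50 only through library 3 of the 10 µM group (853). It stood at 0 to 14.3 in the other libraries, so its r without library 3 is taken over values far below 50.

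Markers of other cell types were set beside the members, from lists written with earlier results of these data known. The fibroblast and muscle list had 7 of 9 names. Its summed level was 923 to 1034 normalized counts in control, 1011 to 1084 at 1 µM, and 1145, 961 and 6718 at 10 µM, high in library 3 as miR-122-5p was. Outside that library most of the sum was miR-199a-3p and miR-199b-5p. miR-145-5p, of smooth muscle and fibroblasts, stood at 0, 3.43 and 0 in control, 5.92, 14.3 and 11.1 at 1 µM, and 13.9, 13.3 and 853 at 10 µM. Like miR-451a, it was above each control library in all 6 GRd libraries, at under 15 normalized counts in 5 of them. miR-143-3p, from the same cluster, stood at 17.2 to 21.2 in control, 14.3 to 19.7 at 1 µM, and 13.2, 16.4 and 647 at 10 µM, so the groups overlapped. Above control without overlap were miR-145-5p and miR-214-3p at 10 µM and miR-145-5p at 1 µM, 2 and 1 of 7. The shares of all sequences were 3.72 and 5%. The muscle miRNA miR-133a-3p was at 0 in 7 libraries and miR-206 in 8. With limma 0 of the 7 passed after adjustment in any comparison. At an unadjusted p under 0.05 against control there were 2 of 7 at 10 µM and 2 of 7 at 1 µM, beside 5.51 and 1.79% of all sequences. Their median log2 difference from control was 1.25 at 10 µM, with library 3 included, and 0.00 at 1 µM.

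Of the other miRNAs abundant in red cells, 0 of 11 lay above control without overlap at either dose, beside 3.72% of all sequences at 10 µM and 5% at 1 µM. All 11 names on the list were found, of which 10 had a control mean of at least 50, so these cells carry them too. Their sum was 684794 to 929896 in control, 781505 to 868003 at 1 µM and 633291 to 818874 at 10 µM, led by miR-92a-3p, miR-191-5p and miR-25-3p. With limma 0 of 11 passed in either direction in each comparison, and 0 at an unadjusted p under 0.05. Their median log2 difference from control was -0.11 at 10 µM and 0.00 at 1 µM, beside 0.14 and 0.00 over all sequences. miR-363, of red cells, was above 0 in 1 library, at 5.12 in library 2 of the 10 µM group.

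Of 8 other liver miRNAs, 5 were found, and 4 entered the fit. Their sum was 805 to 829 in control, 793 to 874 at 1 µM and 912 to 1161 at 10 µM. There library 3, with the most miR-122-5p, had the lowest sum of its group. Most of the sum was miR-192-5p and miR-194-5p. miR-192-5p alone lay above control without overlap, at 10 µM (1 of 4, and 0 at 1 µM), beside 3.72 and 5% of all sequences. miR-192-5p and miR-194-5p stood in library 3 at 321 and 449, against 282 to 310 and 478 to 522 in control. miR-148a-3p was highest in library 2 of the 10 µM group, at 273, with 125 in library 3 and 17.4 in library 1, against 18.0 to 23.9 in control. miR-193b was low but, like miR-122-5p, highest in library 3 of the 10 µM group. It stood at 0, 8.24 and 0 in control, 0, 12.4 and 8.91 at 1 µM, and 5.58, 7.17 and 16.5 at 10 µM. miR-885-5p was at 0 in all libraries but library 3 at 1 µM (2.78). With limma 0 of these 4 passed after adjustment in each comparison. At an unadjusted p under 0.05 against control there were 1 of 4 at 10 µM and 0 at 1 µM, beside 5.51 and 1.79% of all sequences. Their median log2 difference from control was 1.12 at 10 µM, with library 3 included, and 0.22 at 1 µM.

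The 5 miRNAs often found in serum summed to 120128 to 134090 in control, 116528 to 123770 at 1 µM, and 122966, 153523 and 221667 at 10 µM. miR-1246 was highest in library 2 of the 10 µM group, at 4754, and stood at 796 in library 3 and 56.5 in library 1, against 22.5 to 102 in control and 87.4 to 110 at 1 µM. The sequence named bta-miR-2478 stood at 11736, 11924 and 10949.7 in control, 16276, 16356 and 14487 at 1 µM, and 16134, 16698 and 21533 at 10 µM. It was above each control library in all 6 GRd libraries, as miR-451a was. No other of the 5 on the serum list was above control without overlap at either dose. The shares of all sequences were 3.72% at 10 µM and 5% at 1 µM. In the other direction, miR-423-3p lay below control without overlap at 1 µM, at 67980 to 74160 against 75121 to 88009. The share of all sequences below control was not computed. At 1 µM bta-miR-2478 was lower in library 3, with 223 normalized counts of miR-451a, than in library 1, with 31.6. So were miR-1246 (95.8 in library 3, 109.6 in library 1), miR-423-3p (67980 and 74160) and the sum (116528 and 123770). The others, miR-1290 (5.57 in library 3, 3.45 in library 1) and miR-320a-3p (33960 and 33221), were higher in library 3. At 10 µM each miRNA of this list and the sum were higher in library 3 than in library 1.

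The platelet, endothelial and lymphocyte list (5 of 5 names) summed to 25155 to 39619 in control, 29609 to 34756 at 1 µM and 27376 to 49010 at 10 µM, nearly all of it miR-10a-5p. miR-10b-5p stood at 7.43, 8.93 and 7.96 in control, 14.3, 27.6 and 16.7 at 1 µM, and 25.8, 9.22 and 1364 at 10 µM. It too was above each control library in all 6 GRd libraries and was highest in library 3 of the 10 µM group. Above control without overlap were miR-10b-5p and miR-126a-3p at 10 µM and miR-10b-5p at 1 µM, 2 and 1 of 5. The shares of all sequences were 3.72 and 5%. With limma 0 of 5 passed after adjustment in the serum list and 0 of 5 in this one, in each comparison. At an unadjusted p under 0.05 against control there were 3 of 5 of the serum list at 10 µM and 1 at 1 µM. Of this one there were 1 and 0 of 5, beside 5.51 and 1.79% of all sequences. The lists were written with earlier results known, so nothing is read from these counts. Median log2 differences from control were 0.64 at 10 µM and 0.44 at 1 µM for the serum list, and 0.67 at 10 µM and 0.61 at 1 µM for the other. The part of any of these lists in the levels of the 4 miRNAs was not tested.

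**Figure D4:**
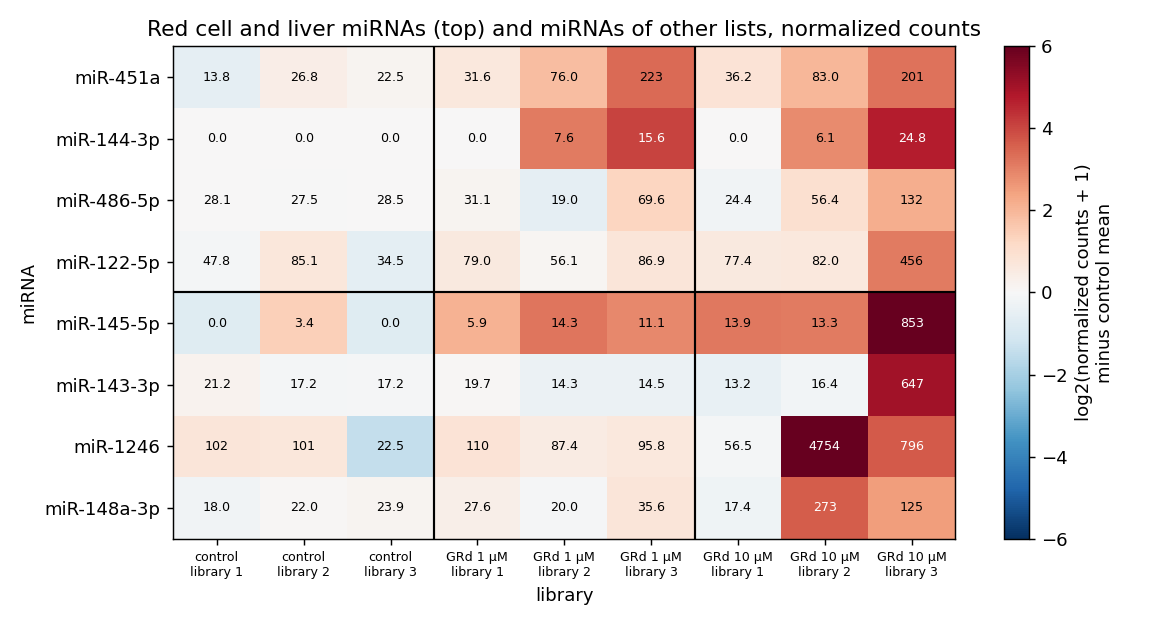
The 4 miRNAs (upper rows) and 4 miRNAs of the other lists (lower rows, chosen after their values were seen) in all 9 libraries. Numbers are normalized counts, and colour is log2(normalized counts + 1) minus the mean of the 3 control libraries. miR-122-5p, miR-145-5p and miR-143-3p are highest in library 3 of the 10 µM group, whereas miR-451a is as high in library 3 of the 1 µM group (223) as there (201). miR-145-5p is also above control (0, 3.43 and 0) in the other 5 GRd libraries, at 5.92 to 14.3.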

How the data were processed

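Per the labels' protocols, libraries were made from total RNA with a TruSeq Small RNA kit, and reads were filtered with ACGT101-miR against adapters, structural RNAs and repeats. The deposited signal values are, per the file headers, normalized counts, that is reads per sequence that the authors brought to a common library scale. How they scaled and mapped reads, and to which build, is not given in the sources used here. After such scaling a shift common to most miRNAs cannot be seen.

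Of 1608 rows, 37 repeated a sequence and were counted once. Groups came from sample titles, and columns were matched by sample description. Because low values were not all whole reads, count models were not run. limma 3.58.1 (R 4.3.3) was fitted to log2(value + 1) for sequences whose mean reached 1 in any group. All 9 libraries entered 1 model with a trended prior variance, and p-values were adjusted by Benjamini-Hochberg with a threshold of 0.05. It was tested on simulated data. p-values measure the spread between these libraries, which may be technical. The named miRNAs are all members, the 5 sequences most like miR-451a and miR-122-5p, and leading members of each list. Members and lists were chosen with earlier results of these data known. Python 3.11.15, pandas 2.3.3, numpy 2.4.6, scipy 1.17.1 and matplotlib 3.10.9 were used.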

Additional observations from a re-analysis of the deposited data

How the results depend on the processing

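Under the 18 alternatives (pseudocounts, filters, scalings, repeated sequences kept, 6 libraries per fit, a replicate block, each library left out) 0 of the 4 miRNAs passed limma after adjustment. Of 186 recomputed log2 differences of single miRNAs, 184 moved by less than the SD within groups. The exceptions were miR-144-3p against control with pseudocount 0.1, at 4.64 for 10 µM and 4.52 for 1 µM. In all, 180 stayed above 0, and 6 fell below it, all with a library left out. Both counts include values that could not change. Leaving out a library of the group not compared, changing the filter or keeping repeated sequences leaves a difference of group means as it was. With 1 of 3 libraries of a compared group left out, a difference cannot move by more than the SD within groups, whatever the values. For libraries left out, the count of 184 is therefore no measure of stability, and the differences themselves are to be read.

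With 1 library left out, the sequences passing limma numbered 0 to 13 for 10 µM against control (13 without 10 µM library 1, 1 without 10 µM library 3), 0 to 9 for 10 against 1 µM (9 without 10 µM library 1) and 0 for 1 µM against control. The members above control without overlap numbered 1 to 3 at 10 µM (3 without 10 µM library 1, 2 without control library 2) and 1 to 2 at 1 µM (2 without 1 µM library 1, 1 µM library 2 or control library 2). Fewer libraries in a group make such a separation easier for any sequence. The shares of all sequences with a library left out were not computed, so nothing is read from these counts. The median of the 4 ranged from 1.00 to 2.24 for 10 µM against control, 0.79 to 1.52 for 1 µM against control and -0.23 to 1.33 for 10 against 1 µM.

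With the replicate block 0 sequences passed in each comparison, as without it. Deviations of same-numbered libraries had r between -0.07 and 0.03. Each library of the first-named group was also set against the other group in each comparison. In 2 of these 9 cases its highest r was with its own number. No pairing by number was seen over all sequences, and whether libraries shared a culture or day was not tested. Depth limits miR-144-3p most, with 18 reads at most.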
